A study of Mus musculus with 11 samples.

Results

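Abhd3, Gdpd1, Ept1, Serinc5 and Agk are 5 genes of phospholipid synthesis and turnover among the 1767 genes of an RNA-seq table of mouse striatal cells in which the transcription factor NF-Y was knocked down. They were chosen by their symbols, with the results of the knockdown comparison known, so that their differences between the groups are given as descriptions, without p-values, and calls among them support nothing. The table holds only genes that the authors had listed as differing between the groups by a p-value, and other genes are not analysed here.

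All samples came from wild-type male B6 mice (strain C57BL/6), injected in the striata of both hemispheres at 6 weeks of age and taken 3 weeks later. Mice of the 5 knockdown samples had received adeno-associated virus (AAV) for EmGFP, a green fluorescent protein, with microRNA-type RNAi against NF-YA and NF-YC. Mice of the 6 NT2 control samples had received the same kind of vector with a non-targeting RNAi. The vectors of both groups thus carried EmGFP and an RNAi, and the amount of vector per sample was not analysed here. The CAG promoter of the vectors is active in many cell types, and the sort for EmGFP-positive, propidium iodide-negative cells kept any living cell that carried the vector. RNA of each sorted sample was amplified as cDNA and sequenced.

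Phospholipids form the bilayer of cell membranes and are built on a glycerol backbone that carries fatty acids and a head group. Phosphatidic acid is the common precursor, ethanolamine or choline head groups are added through CDP-activated intermediates, and serine head groups by exchange. Phospholipases and acyltransferases then remove and replace acyl chains or head groups, and the lysophospholipids formed in between, such as lysophosphatidic acid, also act as signals in brain. NF-Y is a trimer of NF-YA, NF-YB and NF-YC that binds the CCAAT sequence in promoters.

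The proximal promoters are shown because NF-Y binds CCAAT. Promoters of 4 of the 5 genes were taken from RefSeq (build GRCm38.p6), with Ept1 under its current symbol Selenoi, and the promoter of Abhd3 was not analysed here. The 250 bases before each annotated start are printed 5′ to 3′ on the strand of the gene. Capitals mark CCAAT or its reverse complement ATTGG, and the GC box GGGCGG or its reverse complement CCGCCC, which do not overlap each other here. The windows are chr5:30232331-30232580 on the plus strand for Ept1, chr11:87074138-87074387 on the minus strand for Gdpd1, chr13:92610888-92611137 on the plus strand for Serinc5 and chr6:40325228-40325477 on the plus strand for Agk.
Ept1: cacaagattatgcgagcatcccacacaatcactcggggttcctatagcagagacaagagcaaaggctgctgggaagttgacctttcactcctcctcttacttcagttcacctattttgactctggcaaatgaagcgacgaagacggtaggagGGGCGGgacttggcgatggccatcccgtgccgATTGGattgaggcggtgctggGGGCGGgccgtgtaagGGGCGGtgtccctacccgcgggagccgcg
Gdpd1: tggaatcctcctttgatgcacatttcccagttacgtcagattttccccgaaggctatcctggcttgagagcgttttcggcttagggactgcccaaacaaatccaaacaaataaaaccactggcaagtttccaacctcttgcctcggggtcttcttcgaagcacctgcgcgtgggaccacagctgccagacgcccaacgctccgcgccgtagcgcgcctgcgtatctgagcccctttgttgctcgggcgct
Serinc5: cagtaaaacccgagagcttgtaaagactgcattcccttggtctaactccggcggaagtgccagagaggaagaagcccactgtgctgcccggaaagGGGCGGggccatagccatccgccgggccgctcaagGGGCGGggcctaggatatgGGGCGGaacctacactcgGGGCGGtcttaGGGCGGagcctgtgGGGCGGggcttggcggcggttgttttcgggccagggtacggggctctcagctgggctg
Agk: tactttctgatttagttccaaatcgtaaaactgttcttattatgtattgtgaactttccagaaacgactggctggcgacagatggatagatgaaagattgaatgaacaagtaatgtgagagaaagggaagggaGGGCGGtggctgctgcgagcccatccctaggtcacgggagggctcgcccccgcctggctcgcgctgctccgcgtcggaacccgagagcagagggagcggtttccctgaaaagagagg

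Ept1 was the only one of these 4 genes with the CCAAT letters in the window, as ATTGG from 66 to 62 bases before the start. Ept1 also held 3 GC boxes, of which 1 lay before and 2 after the ATTGG. The Serinc5 window held 6 GC boxes between 155 and 53 bases before the start and was the richest in G and C of the 4, with 65.6%. The Agk window held 1 GC box, 117 bases before the start, and the Gdpd1 window held neither motif. Among the 32851 RefSeq promoters examined, of 27025 genes, 33.8% held CCAAT on either strand in the same window and 32.7% a GC box. Some genes have more than 1 promoter, and only 1344 of the listed genes had any. Among their 1768 promoters, the shares were 36.1% and 50.9%. A match describes the letters of the window and not a binding site.

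In the table, the targeted gene Nfyc had normalized counts of 733 to 1206 (median 898) in the control samples and of 975, 840.4, 887, 603 and 722 in the knockdown samples 4, 6, 8, 10 and 22. The groups overlapped, with a log2 fold change of -0.19 (SE 0.15). The group means were 921 ± 173 (SD, n = 6) and 806 ± 146 (SD, n = 5). With the scaling factors of the authors they were 957 ± 145 and 766 ± 138, and the groups overlapped there too. Nfya was not analysed here. Summed over the listed genes, control samples held 1581757 to 3141324 estimated counts and knockdown samples 1954949 to 3010153, which is not the depth of the libraries. Of 43 glial markers 8 were listed, with log2 fold changes of -1.54 to -0.35, and 7 of the 8 were called lower (edgeR adjusted p under 0.05), beside 21.3% of all listed genes called lower and 39% called higher. The astrocyte markers among them were Slc1a3, Gja1, Gjb6, Aldoc, Fgfr3 and Acsbg1, with log2 fold changes of -1.54 to -0.88. The oligodendrocyte lineage had only Ugt8a (-0.50) and microglia only P2ry12 (-0.35, not called). The mean log2 level of the 8 markers, the glial marker score, thus rests mostly on astrocyte genes. It was 0.43 ± 0.63 (SD, n = 6) in control and -0.51 ± 0.40 (SD, n = 5) in knockdown samples. The lowest control sample, number 3, stood at -0.54 and the highest, number 21, at 1.204, whereas the knockdown samples lay between -1.002 and -0.038. The summed normalized counts of the 8 markers were 49970.0 to 116450.0 in control and 41489 to 57447 in knockdown samples. Of 10 vascular markers 6 were listed, with 6 of 6 lower and 4 called lower, and none of 21 neuronal markers was listed (0 of 21), so that the neuronal identity of the samples could not be checked. In sorted bulk samples, fewer cells of a type and less RNA per cell cannot be told apart.

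The normalized counts of the 5 genes, which are estimated counts divided by the TMM (trimmed mean of M values) factor of the sample, were lower in the mean of the knockdown group for each gene. Abhd3 differed most, with a mean of 584 ± 100.4 (SD, n = 5) against 1224 ± 332 (SD, n = 6), and was the only one of the 5 with groups that did not overlap. The other 4 genes had log2 fold changes between -0.47 and -0.34. Counts depend on transcript length and are compared between groups for the same gene only.

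**Figure D1:**
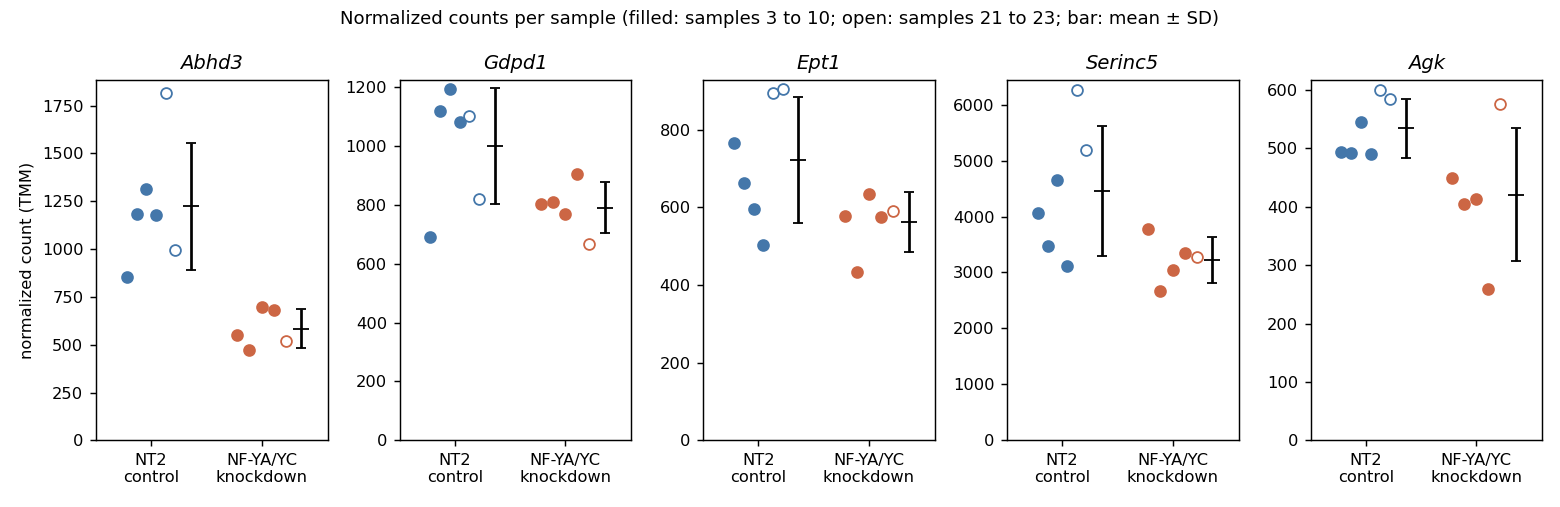
Normalized count of each gene (vertical axes from 0) in each NT2 control and NF-YA/YC knockdown sample, with filled points for samples numbered 3 to 10, open points for those numbered 21 to 23, and the mean ± SD beside each group. All 5 knockdown samples lie below all 6 control samples for Abhd3, whereas the groups overlap for Gdpd1, Ept1, Serinc5 and Agk.

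Of the enzymes that break phospholipids down, Abhd3 (chromosome 18, 10644409 to 10706694, minus strand, mm9) is a lipase that acts on phosphatidylcholines with medium-length or oxidised acyl chains. Its lowest, median and highest normalized counts in the control samples were 856, 1182 and 1818. The knockdown samples 4, 6, 8, 10 and 22 had 551, 470.4, 697, 681 and 521. The highest knockdown sample, number 8, was below the lowest control sample, number 3, and the control sample 21 stood well above the other control samples. The log2 fold change was -1.07 (SE 0.18), or -1.22 (SE 0.20) with the scaling factors of the authors, and the groups stayed apart with either scaling. Leaving out each sample in turn gave -1.15 to -0.92, and samples 3 to 10 alone gave -0.92 (SE 0.18).

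Gdpd1 (chromosome 11, 86847296 to 86887639, minus strand) encodes a lysophospholipase D that releases lysophosphatidic acid from lysophospholipids. Control samples ranged from 691 through a median of 1090.0 to 1192, and the knockdown samples 4, 6, 8, 10 and 22 had 801, 808, 767, 906 and 667. Control samples 3 and 23 lay within the range of the knockdown samples, and the other 4 control samples were above all knockdown samples. The group means were 1000.3 ± 198 (SD, n = 6) and 789.9 ± 85.7 (SD, n = 5). The log2 fold change was -0.34 (SE 0.15), or -0.49 (SE 0.16) with the authors' scaling.

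Of the enzymes that build phospholipids, Ept1 (chromosome 5, 30559158 to 30598976, plus strand) is the selenoprotein that transfers phosphoethanolamine from CDP-ethanolamine to diacylglycerol, the last step in making phosphatidylethanolamine. Its control samples ranged from 503 (median 714) to 905, and the knockdown samples 4, 6, 8, 10 and 22 had 578, 432, 635, 576 and 591. Control samples 9 and 7 fell among the knockdown samples, and only knockdown sample 6 was below every control sample. Both control samples numbered above 20 were the highest of all. The means were 721 ± 163 (SD, n = 6) and 562 ± 76.4 (SD, n = 5). The log2 fold change was -0.36 (SE 0.16) over all samples, -0.49 (SE 0.17) with the authors' scaling, and -0.19 (SE 0.17) among samples 3 to 10.

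Serinc5 (chromosome 13, 93381093 to 93481901, plus strand) encodes a multipass membrane protein of the serine incorporator family, named for the supply of serine to phosphatidylserine and sphingolipids and also known as an antiviral factor. Control samples ranged from 3116 (median 4352) to 6264, and the knockdown samples 4, 6, 8, 10 and 22 had 3772, 2668, 3049, 3351 and 3279. Control samples 9 and 5 fell within the range of the knockdown group, and the highest control samples were again 21 and 23. The means were 4459 ± 1163 (SD, n = 6) and 3224 ± 406 (SD, n = 5). The log2 fold change was -0.47 (SE 0.17), or -0.61 (SE 0.18) with the authors' scaling, and among samples 3 to 10 it was -0.25 (SE 0.16).

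Agk (chromosome 6, 40275477 to 40346761, plus strand) encodes a mitochondrial acylglycerol kinase, which forms phosphatidic and lysophosphatidic acid and is also a part of the TIM22 protein import complex. Its control samples were the most even of the 5 genes, from 489.7 (median 519) to 600.0, with a coefficient of variation of 9.33%. The knockdown samples 4, 6, 8, 10 and 22 had 449, 405, 413, 259 and 576. Of these, 4 were below every control sample, and knockdown sample 22 lay among the highest control samples. The coefficient of variation in the knockdown group was 26.95%, with samples 10 and 22 at either end. The means were 534 ± 49.8 (SD, n = 6) and 420.4 ± 113 (SD, n = 5). The log2 fold change was -0.34 (SE 0.17), or -0.48 (SE 0.18) with the authors' scaling. It was -0.21 without knockdown sample 10 and -0.49 without knockdown sample 22.

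In the edgeR quasi-likelihood fit of all listed genes, called at a Benjamini-Hochberg adjusted p under 0.05, Abhd3 and Serinc5 were called lower, 2 of the 5 genes, beside 21.3% of all listed genes called lower and 39% called higher. With the authors' scaling 5 of 5 were called, beside 47.3% lower and 32.2% higher. That scaling moved the median log2 fold change of all listed genes from -0.13 to -0.27, by -0.13 for the median gene, and the 5 genes moved with it. The order of the 5 genes by log2 fold change began with Abhd3, Serinc5 and Ept1 with either scaling, and Ept1, Agk and Gdpd1 lay within 1 SE of each other. Groups without overlap, as for Abhd3, were found with the knockdown group lower for 2.43% of the listed genes, or 6.11% with the authors' scaling. Since the 5 genes were chosen with this comparison known, nothing is read from these counts.

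The Serinc5 call was lost without any one of control samples 7, 21 or 23 or knockdown samples 6, 8, 10 or 22, at log2 fold changes from -0.54 to -0.35 over all samples left out. A call was gained for Ept1 without control sample 9, for Gdpd1 without control sample 3 or 23 and for Agk without knockdown sample 22.

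**Figure D2:**
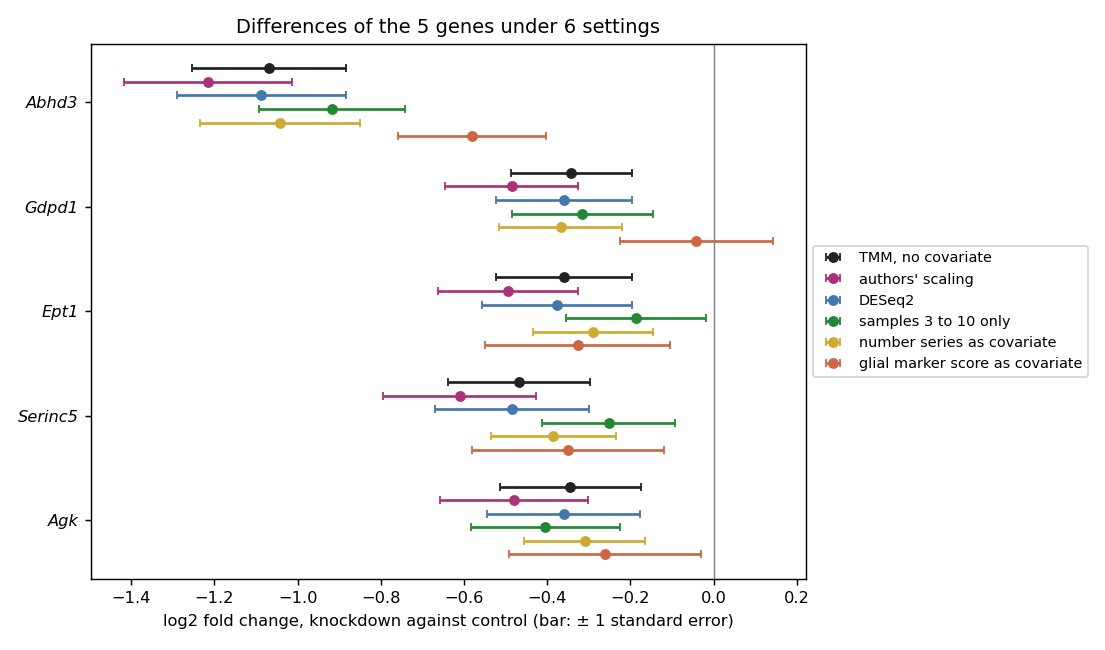
Log2 fold change, knockdown against control, of each of the 5 genes under 6 settings, with bars of ± 1 standard error. All values are below 0, and with the glial score in the fit Abhd3 moves from -1.07 to -0.58 and Gdpd1 from -0.34 to -0.041.

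The glial marker score moved with the knockdown, and with the score as a covariate the log2 fold changes were -0.58 (SE 0.18) for Abhd3 and -0.041 (SE 0.18) for Gdpd1. Those of Ept1, Serinc5 and Agk were -0.33 (SE 0.22), -0.35 (SE 0.23) and -0.26 (SE 0.23), which differ from the values without the score by less than 1 SE. None of the 5 was then called (0 of 5), beside 0.962% of all listed genes called lower and 4.36% called higher, while 10.2% were lower at an unadjusted p under 0.05. The score was made from genes of the same table that differ between the groups, and its part and that of the vascular markers in the differences of the 5 genes was not tested.

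Within the groups, the relation of each gene to the score does not use the difference between the groups. After subtraction of the group mean, Abhd3 had Pearson's r = 0.78 with the glial marker score over the 11 samples (two-sided exact permutation within groups, p = 0.0133, adjusted over 5 genes 0.0665) and Spearman's rho = 0.64 (exact permutation p = 0.0634, adjusted 0.317). Without control samples 3 and 21, the farthest in the score, r was 0.47, and the relation of Abhd3 to the score rests largely on these samples. Gdpd1 had r = 0.62 (exact permutation p = 0.087, adjusted 0.217) and rho = 0.38 (p = 0.302, adjusted 0.755), with r = 0.26 without the same samples. For Serinc5, Agk and Ept1, r was 0.19, 0.11 and 0.071. None of the 5 relations passed the adjustment (0 of 5). In the control samples alone, r was 0.92 for Abhd3 and 0.88 for Gdpd1. In the knockdown samples alone, r was 0.37 for Abhd3 and -0.37 for Gdpd1, so that Gdpd1 did not follow the score there.

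**Figure D3:**
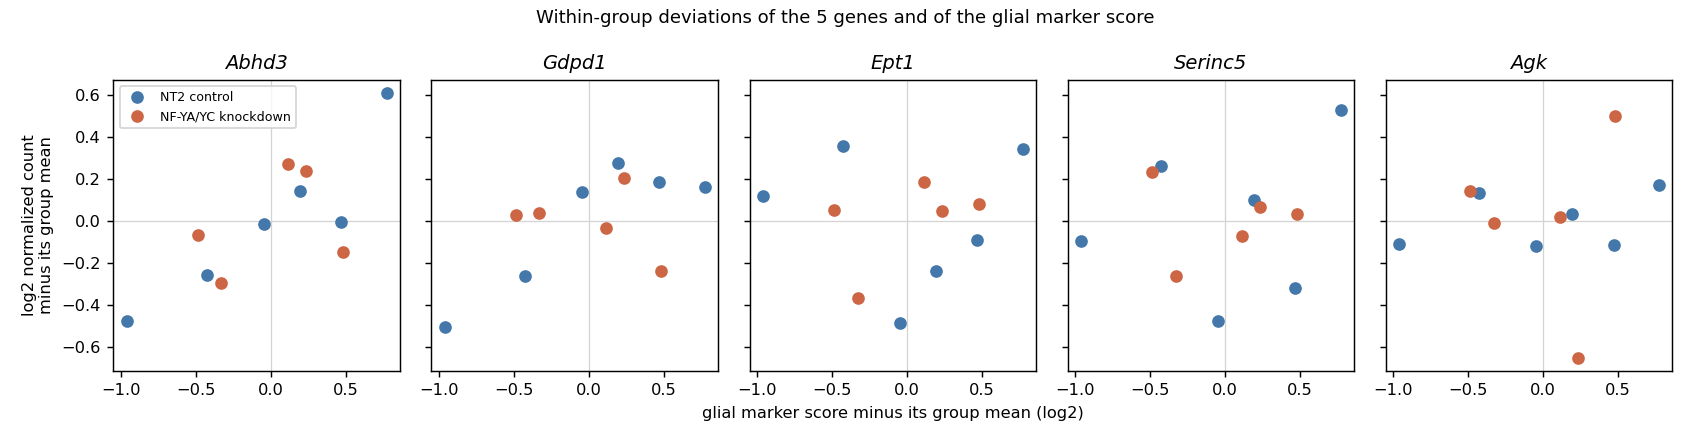
Deviation of each gene's log2 normalized count from its group mean (vertical axes) against the deviation of the glial marker score from its group mean (horizontal axes, log2), with 1 point per sample. Abhd3 and Gdpd1 have the highest r with the score over 11 samples (0.78 and 0.62), and Ept1, Serinc5 and Agk have 0.071 to 0.19. Among the knockdown samples alone, r is 0.37 for Abhd3 and -0.37 for Gdpd1.

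The 10 pairs among the 5 genes had within-group r from -0.42 to 0.77, and none passed the adjustment over the 10 pairs (0 of 10). The highest r was that of Ept1 with Serinc5 (r = 0.77, exact permutation p = 0.0202, adjusted 0.202, rho = 0.53, p = 0.138, adjusted 0.276). It was 0.55 without control sample 9 and knockdown sample 6. Abhd3 with Gdpd1, the 2 breakdown enzymes, followed (r = 0.69, exact permutation p = 0.0436, adjusted 0.218, rho = 0.53, p = 0.138, adjusted 0.276), with r = 0.55 without control samples 3 and 21. The lowest was Ept1 with Gdpd1 (r = -0.42, exact permutation p = 0.293, adjusted 0.488, rho = -0.56, p = 0.109, adjusted 0.276). By Spearman's rho, the highest pairs were Ept1 with Agk and Serinc5 with Agk (rho = 0.71 each, exact permutation p = 0.0333, adjusted 0.167). Their r was 0.24 and 0.30.

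The genes whose within-group pattern was most like each of the 5 were sought among 1167 listed genes with a mean normalized count of at least 200, over the 11 samples, as a description. For Abhd3 these were Tmem184c (r = 0.89), Sparcl1 (0.86), a matricellular protein gene strongly expressed in astrocytes, and Paqr7 (0.85). For Gdpd1 they were Timp4 (0.92), a metalloproteinase inhibitor, Tril (0.88) and Ptn (0.87), the growth factor pleiotrophin. Ept1 was followed by Zfp740 (0.92), Dip2b (0.89) and Ust (0.86). Serinc5 was followed by Paqr4 (0.94), S1pr5 (0.92), a receptor for the lysophospholipid sphingosine 1-phosphate found in oligodendrocytes, and Abcb8 (0.90). Agk had the lowest values of the 5, with 2410042D21Rik (0.83), Zfp287 (0.80) and Abcc9 (0.79). The samples share libraries and scaling, and each value is the highest of many.

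A list of 129 further genes of phospholipid synthesis, remodelling and breakdown had 11 members in the table. Of these 11, Mboat2 and Serinc4 were called lower and Etnk2 higher, beside the 21.3% and 39% of all listed genes, and 10 of 11 had log2 fold changes below 0. Their median log2 fold change was -0.15, beside -0.13 over all listed genes. With the authors' scaling 8 were called lower and 1 higher, beside 47.3% and 32.2% of all listed genes, with medians of -0.29 and -0.27.

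The edgeR adjusted p-values that follow were taken over genes already listed by p-value for the same comparison, and describe this table only. Mboat2, an acyltransferase that puts fatty acids back onto lysophospholipids, fell from 838 ± 125 (SD, n = 6) to 514 ± 115 (SD, n = 5) normalized counts, with a log2 fold change of -0.71 (SE 0.16, edgeR adjusted p = 0.010). Etnk2, an ethanolamine kinase of the pathway that Ept1 completes, rose from 41.3 ± 18.8 (SD, n = 6) to 85.6 ± 28.9 (SD, n = 5), with a log2 fold change of 1.06 (SE 0.36, edgeR adjusted p = 0.0304), so that the first and the last enzyme of this pathway in the table had differences of opposite sign with either scaling. The Etnk2 call was lost without control sample 5 or 21 or knockdown sample 6 or 22. The highest estimated count of Etnk2 in any sample was 138, and Ept1 was not called with TMM. Serinc4, of the same family as Serinc5, had a lowest control value of 28.8, a median of 45.6 and a highest of 507, against 2.14 to 38.6 after knockdown, at a log2 fold change of -3.22 (SE 0.95, edgeR adjusted p = 0.0207), and the groups overlapped. The control mean of Serinc4 was 173 ± 212 (SD, n = 6), a spread larger than the mean. With the glial marker score in the fit, Mboat2 had -0.60 (SE 0.23, edgeR adjusted p = 0.114), Serinc4 -3.56 (SE 1.04, edgeR adjusted p = 0.0612) and Etnk2 0.94 (SE 0.51, edgeR adjusted p = 0.218), and neither there nor among samples 3 to 10 was any of the 11 genes called (0 of 11).

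Of the other genes related to the 5, Gpam, the mitochondrial enzyme that starts phosphatidic acid synthesis, had a log2 fold change of -0.67 (SE 0.28), or 0.16 (SE 0.22) with the glial marker score in the fit. Abhd2, of the same hydrolase family as Abhd3, had -0.15 (SE 0.12), and Ptdss2, a phosphatidylserine synthase, -0.13 (SE 0.092). Agpat5, Cds2, Pnpla6, Pnpla8 and Gpcpd1 had values between -0.32 and -0.049. None of these 8 genes passed the test with TMM. With the authors' scaling all of them but Abhd2 and Pnpla8 were called lower, beside 47.3% of all listed genes.

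**Figure D4:**
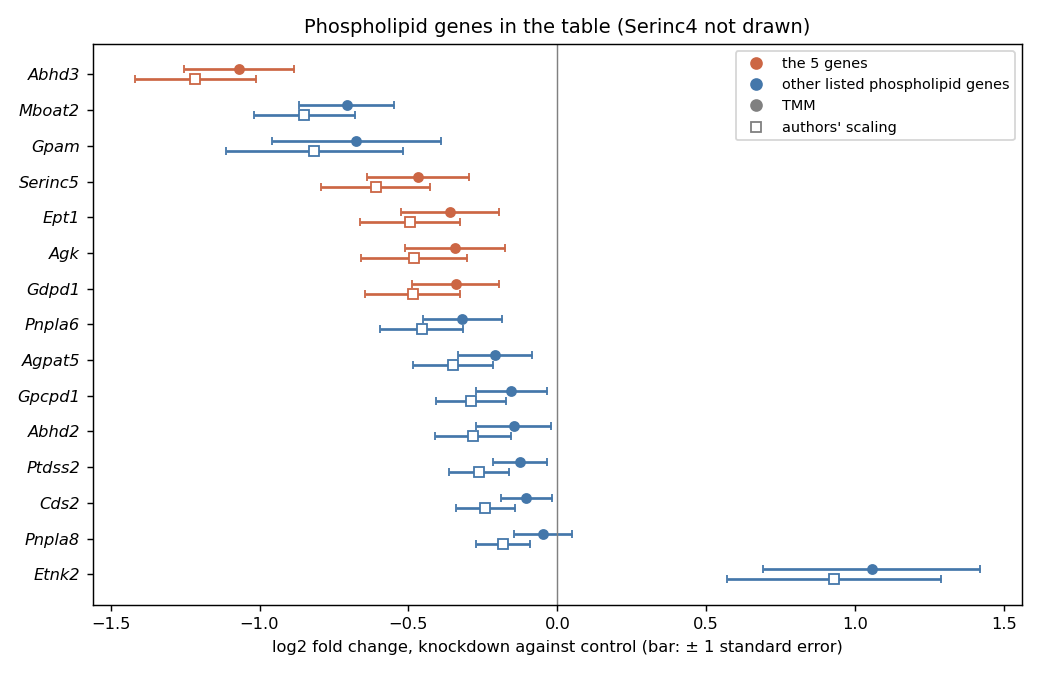
Log2 fold change, knockdown against control, with bars of ± 1 standard error for the 5 genes and for 10 of the 11 other phospholipid genes in the table, with TMM (filled circles) and the authors' scaling (open squares). Abhd3 has the lowest value of the genes drawn (-1.07) and Etnk2 the highest (1.06), and Serinc4 (-3.22) is not drawn for reasons of scale.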

How the data were processed

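RNA-seq data of EmGFP-positive striatal cells were analysed in 11 samples, 6 with the NT2 vector and 5 with the NF-YA/YC vector by their labels. Reads had been counted per gene in Strand NGS by the authors, giving estimated counts without normalization (46.3% of values exactly whole). The authors' log2 values are the log2 of the scaled count minus a value per gene, from which their scaling factor of each sample was recovered with genes of more than 50 counts. Deposited p-values and fold changes of the authors were not used. The submitters' processing notes name mm9 as the build, used here for gene positions, and the aligner and annotation are not given in the sources used here.

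Estimated counts were rounded and fitted with edgeR 4.0.16 (R 4.3.3), glmQLFit and glmQLFTest after TMM normalization, over all 1767 genes, with Benjamini-Hochberg adjustment. Because the genes had been listed by p-value, normalization, dispersion and adjusted p-values describe the table. The code was tested on simulated data. Alternatives were the authors' scaling, DESeq2 1.42.0 and its size factors, total count scaling, a minimum of 200 for the highest count, the sample number series (3 to 10 and 21 to 23) or the glial score as a covariate, samples 3 to 10 alone, leaving out each sample, and an unadjusted p under 0.05 with a fold above 1.2. A count of 0.5 was added before log2. The glial marker score is the mean over markers of the log2 normalized count minus the gene's mean over samples. SE and p-values measure the spread between samples. The labels name no animal, and whether each sample came from a single mouse is not given in the sources used here.

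The 5 genes and the gene lists were chosen with earlier results of these data known, and the within-group relations were added after the data were seen. Named genes were the 5 genes, the 3 listed genes most like each, called genes of the phospholipid list and family members, cell type markers and Nfyc. Values of other cell types in the study's supplement were not used here.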

Additional observations from a re-analysis of the deposited data

Results flagged for a closer look

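Ept1 in knockdown replicate 6 had a normalized count of 432, and its gap to the nearest other knockdown sample, divided by the range of the group, was 0.71, just above the critical value for 5 samples. Of 12 groups of values examined in this way, 1 stood out, and chance gives about 1 in 20 groups such a sample. Without knockdown replicate 6 the log2 fold change of Ept1 was -0.28 (SE 0.17).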

How the results depend on the processing

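The log2 fold changes of Abhd3, Gdpd1, Ept1, Serinc5 and Agk were below 0 under each of the 19 alternatives run. The number of the 5 genes called lower was 5 with the authors' scaling, 1 with a highest count of at least 200, 1 in samples 3 to 10, 0 with the glial marker score, 4 with an unadjusted p under 0.05 and a fold above 1.2, and 1 to 3 without single samples, against 2. The counts of all genes called lower and higher (377 and 689) were 836 lower with the authors' scaling, 180.0 lower with the minimum of 200 counts, 57 and 150.0 in samples 3 to 10, 17 and 77 with the glial marker score, and 208 to 441 and 511 to 680.0 without single samples. They were 457 and 720 with the unadjusted rule, 459 and 679 with DESeq2, and 413 and 685 with the DESeq2 size factors. The other phospholipid genes called lower were 8 with the authors' scaling, 4 with DESeq2 or its size factors, 4 with the unadjusted rule, and 0 in samples 3 to 10 or with the glial marker score. Those called higher were 0 under these last 2 settings, 0 with the minimum of 200 counts, which removes Etnk2, and 0 to 1 without single samples. With the glial marker score Abhd3 had -0.58 and Gdpd1 -0.041. The cause was not tested, apart from the removal of Etnk2. No paired analysis was made, because the groups share no sample numbers and the labels name no pairs. The table holds only genes listed by p-value, so that library depth is not analysed here, and rates of calls over other genes are unknown.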
